A study of Mus musculus with 18 samples.

Results

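Mouse embryonic stem cells (ESCs) cultured in 2i were compared with the same line cultured in serum, without and with LY294002, a small-molecule inhibitor of phosphoinositide 3-kinase (PI3K). The comparison used 4 of the 18 arrays of the series. They were the 2 arrays whose titles name 2i and the 2 arrays of parental ESCs in serum from the same set of 4. Each 2i array was set against the serum array of its own drug state, so that 2 samples stood against 2. All 4 samples were EBRTcH3 ESCs, a male line of 129SV background with no further genotype change named in the labels. The 2i samples were 1 culture without LY294002 and 1 treated with LY294002, which the title places at day 5. The serum samples were 1 untreated culture and 1 treated for 5 days, in conventional medium with serum and LIF. The labels state neither what the 2i condition held besides 2i nor whether LIF was in it, and the series' design text spells the drug LY4294002. The other 14 arrays held further parental serum samples, EBRTcH3 lines that overexpress c-Myc, wild-type or T58A, and Max-null ESCs with and without p110 alpha overexpression. RNA was measured on Affymetrix arrays, and every level below is a log2 probe set value of 1 gene, so that a difference of 1 is 2-fold.

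The name 2i stands for the combined inhibition of MEK and of GSK3. MEK activates ERK, the kinase through which Fgf4 and its receptors push mouse ESCs towards differentiation, and ERK activity is usually read from the feedback inhibitors it induces, such as the Sprouty proteins and the dual-specificity phosphatases. GSK3 marks beta-catenin for destruction, so its inhibition stabilises beta-catenin, which acts on target genes through the Tcf and Lef factors. ESCs kept in 2i are known as a model of the naive state of the early epiblast, whereas cultures in serum with LIF are known to be mixed and to express some genes of later epiblast and of lineages.

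The labelled cell type was checked first. All 8 ESC markers lay above the level filter of 4.64 in all 4 arrays. Of 9 fibroblast or feeder markers on the array, 2 (Thy1 and Pdgfrb) lay above it, and the collagens Col1a1, Col1a2, Col3a1 and Col5a2 were between 2.36 and 4.35 in every array. The summed log2 level of these 9 markers was 39.4 and 37.7 in 2i, against 37.7 and 35.3 in serum (untreated and day 5). Of the male markers, Eif2s3y and Uty were above the filter in all 4 arrays and Kdm5d was below it, while Xist, expected to be low in a male line, read between 7.14 and 7.75. The 4 arrays had median levels of 5.03 to 5.05 and the other 14 had 5.31 to 5.52, so levels were compared within the 4. Array values carry no read depth, so precision here is set by how few arrays there are. These are bulk samples, in which fewer cells of a type and less RNA per cell cannot be told apart.

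The promoters of 5 genes are shown as examples of 3 gene groups: an ERK feedback gene, a beta-catenin target and 3 genes of cholesterol synthesis. The last 3 were the genes of their list that passed the test below and had a promoter entry. They were thus picked by result. The sequences are RefSeq promoters of GRCm38.p6, from 250 bases before to 50 bases after the start, written 5′ to 3′ on the strand of the gene. Capitals mark each match, on either strand, to AGGAAG (1 form of the Ets factor core) in Dusp6, to CTTTGAT (1 form of the Tcf and Lef site) in Sp5 and to CCAAT (the NF-Y box) in the others. A match on the other strand reads CTTCCT or ATTGG. None of the 3 motifs contains another. The regions are chr10:99262981-99263280 on the plus strand for Dusp6, chr2:70474673-70474972 on the plus strand for Sp5, chr8:64733529-64733828 on the minus strand for Msmo1, chrX:72918271-72918570 on the plus strand for Nsdhl and chr1:169969156-169969455 on the minus strand for Hsd17b7.
Dusp6: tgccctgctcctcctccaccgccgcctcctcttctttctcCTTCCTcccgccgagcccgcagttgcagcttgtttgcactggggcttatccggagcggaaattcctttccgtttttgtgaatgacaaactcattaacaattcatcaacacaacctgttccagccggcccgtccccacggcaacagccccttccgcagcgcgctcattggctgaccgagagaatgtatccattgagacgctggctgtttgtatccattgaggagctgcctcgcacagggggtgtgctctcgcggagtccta
Sp5: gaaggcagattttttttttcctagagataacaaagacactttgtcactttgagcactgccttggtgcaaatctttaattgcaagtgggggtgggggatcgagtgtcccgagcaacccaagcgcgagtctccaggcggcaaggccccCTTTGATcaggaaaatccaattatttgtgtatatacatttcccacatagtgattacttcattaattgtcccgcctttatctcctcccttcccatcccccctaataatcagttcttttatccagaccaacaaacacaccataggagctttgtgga
Msmo1: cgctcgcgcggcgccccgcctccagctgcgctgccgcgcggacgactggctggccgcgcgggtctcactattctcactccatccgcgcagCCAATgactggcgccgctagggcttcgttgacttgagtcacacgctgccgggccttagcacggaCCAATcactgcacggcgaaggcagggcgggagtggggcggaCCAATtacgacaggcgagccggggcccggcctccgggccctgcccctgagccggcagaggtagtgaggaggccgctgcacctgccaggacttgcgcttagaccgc
Nsdhl: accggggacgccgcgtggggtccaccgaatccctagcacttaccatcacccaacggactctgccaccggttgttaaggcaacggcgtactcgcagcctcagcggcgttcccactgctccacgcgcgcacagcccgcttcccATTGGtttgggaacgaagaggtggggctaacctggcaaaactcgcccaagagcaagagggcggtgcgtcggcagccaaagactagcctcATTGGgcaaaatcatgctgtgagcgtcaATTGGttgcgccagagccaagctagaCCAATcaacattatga
Hsd17b7: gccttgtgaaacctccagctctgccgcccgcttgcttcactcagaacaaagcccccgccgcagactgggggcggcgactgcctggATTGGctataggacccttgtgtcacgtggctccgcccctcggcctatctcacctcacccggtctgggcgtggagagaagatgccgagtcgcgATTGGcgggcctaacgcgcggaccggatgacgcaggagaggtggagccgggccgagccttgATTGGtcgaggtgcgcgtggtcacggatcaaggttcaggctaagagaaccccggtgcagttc

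The Dusp6 window held 1 match and the Sp5 window 1 match, whereas Msmo1, Nsdhl and Hsd17b7 held 3, 4 and 3. AGGAAG was found in 35.4% of all 32851 promoters, 36.8% of tested genes with an entry and 7 of 13 ERK-list genes with an entry. CTTTGAT was found in 3.73% of all promoters, 3.14% of tested genes with an entry and 2 of 8 Wnt-target genes with an entry. These 2 were Sp5 and Tnfrsf19, which did not pass the test below. Bmp4, the 1 gene of the 8 that passed, had no match. CCAAT was found in 37.4% of all promoters, in 42.6% of the tested genes that had an entry, and in 17 of 19 genes (89.5%) of the cholesterol and fatty acid list. A match is a description of the letters in the window and not a binding site.

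In 2i, Spry4, Dusp4, Dusp6 and other genes that made up 11 of 22 members of the ERK list were lower than in serum, as were Dnmt3a, Dnmt3b and Dnmt3l. Of 25 genes of sterol and fatty acid synthesis 7 were higher, and the core factors Pou5f1 and Sox2 were at about the same level. Across 12456 genes tested with drug state as a block, 851 (6.83%) passed an adjusted p of 0.05 in limma, with 459 higher (3.68%) and 392 lower (3.15%) in 2i. All 851 had the same direction in the untreated and in the day 5 pair, which follows from a test whose error is the disagreement of those pairs. The shares higher and lower apply beside every count of list members that passed below. Of the 851, 26 had both 2i arrays and 28 both serum arrays below the level filter, so they were tested only through the medium where they are high, and no fold is given for them. At least 2-fold in both pairs were 369 genes, 200 higher (1.61%) and 169 lower (1.36%), of which 183 and 159 passed the test. The median difference of all genes was 0.02. The fit had 1 residual degree of freedom, so the calls rest on very few data. Fits without 1 array also dropped the block and left 1 sample in a medium, so they cannot show which array the calls need. In them, 848 to 850 of the 851 genes kept their direction. That is no check, since the 851 were called from these same arrays, where both pairs agreed. Without drug state as the block, 1 gene (Zfp423) passed, and 17 passed when parental serum replicate 2 was added after joint quantile normalization of the 18 arrays.

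**Figure D1:**
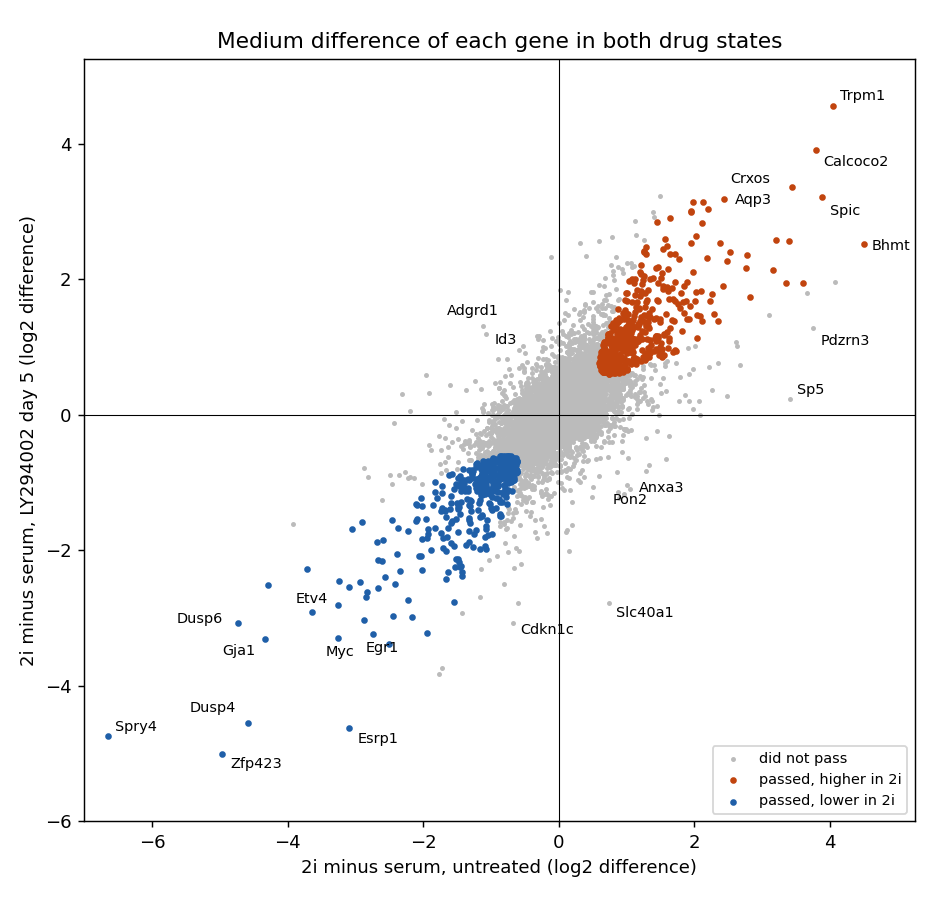
Log2 difference of 2i minus serum in untreated ESCs (x axis) against the same at day 5 of LY294002 (y axis), 1 point per tested gene, with genes that passed the test coloured by direction. Spry4, Zfp423 and Dusp4 lie far to the lower left and Trpm1 and Calcoco2 far to the upper right, and Adgrd1, Anxa3, Id3 and Pon2 lie in the corners where the 2 pairs have opposite signs.

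Among the 12 largest rises, Trpm1, a cation channel known from melanocytes and retina, read 11.04 untreated and 9.56 at day 5 in 2i, against 7.00 and 5.00 in serum. Both 2i arrays lay above both serum arrays, and the mean difference was 4.30 ± 0.17 (SE, n = 2 each), or 19.7-fold (adjusted p = 0.0152). The SE here and below is the moderated one of limma, which borrows spread from all genes tested (3.2 prior beside 1 residual degree of freedom). The 2 samples of a medium were 1 per drug state and not replicates. Of its 4 probe sets, 3 lay above the filter, and their differences ran from 0.03 to 4.30. Calcoco2, an autophagy receptor, read 10.92 and 9.51 in 2i, against 7.13 and 5.60 in serum. Spic, a factor of the Ets family, read 8.52 and 7.69 in 2i, against 4.63 and 4.48 in serum. Neither gene overlapped between media. Calcoco2 rose by 14.4-fold, while Spic was below the level filter in both serum arrays and has a difference of 3.55 between the measured values. Crxos, a homeobox gene, was 10.6-fold higher in 2i, with levels of 10.15 and 8.36 there, against 6.71 and 5.00 in serum. Aqp3, a channel for water and glycerol, read 11.24 and 11.13 in 2i, against 8.80 and 7.95 in serum. Parental serum replicate 2, normalised apart, had Aqp3 at 10.85 untreated and 6.95 at day 5, so its untreated serum level varied widely. Il6ra, the ligand-binding chain of the interleukin-6 receptor, read 7.29 and 7.24 in 2i, against 5.15 and 4.11 in serum. The probe sets of Il6ra ran from 0.45 to 2.63. The 2i arrays were again both above the serum arrays for these 3 genes. The remaining members of the 12 were Bhmt, 2510009E07Rik, Car8, Dmgdh, Krtdap and Aspa, with mean differences between 2.65 (Aspa) and 3.51 (Bhmt) and adjusted p from 0.019 (Car8) to 0.0437 (Dmgdh). Bhmt, 2510009E07Rik, Krtdap and Aspa were below the filter in both serum arrays.

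Among the 12 largest falls, Zfp423, a zinc-finger transcription factor, read 3.24 and 3.35 in 2i, against 8.21 and 8.35 in serum. Both 2i levels lay below the level filter, and the difference between the measured values was -4.99 (adjusted p = 0.00666). Esrp1, a regulator of splicing in epithelial cells, read 4.88 and 4.87 in 2i, against 7.97 and 9.50 in serum. Gja1, which encodes the gap junction protein connexin 43, read 6.83 and 8.96 in 2i, against 11.16 and 12.27 in serum. In both genes the 2i arrays lay below the serum arrays, by 14.5-fold for Esrp1 and 14.1-fold for Gja1 in the mean. The 6 probe sets of Gja1 all pointed down, by 0.63 to 3.91 on the log2 scale. Slc39a14, a zinc and metal importer, fell by 2.99 (with other probe sets as small as -0.24), Enox1 by 3.40 and Kndc1 by 3.03 on the log2 scale, with Kndc1 below the filter in both 2i arrays. The other 6 of the 12 were Spry4, Dusp4, Dusp6, Etv4, Myc and Egr1, all members of the ERK list.

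The ERK list held feedback inhibitors, Ets factors and immediate-early genes, and 11 of its 22 tested members passed as lower in 2i and none as higher, against 3.15% and 3.68% of all genes. The median difference of the 22 was -0.65, at -0.61 untreated and -0.69 at day 5, against 0.02 for all genes. In both pairs 10 members were at least 2-fold lower, against 1.36% of all genes. Etv1, Egr2 and Fosl1 were not tested.

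Of the feedback inhibitors of the receptor-to-Ras step, Spry4 read 3.16 and 5.33 in 2i, against 9.80 and 10.07 in serum. Its 2i levels were far below serum in both drug states, and the mean difference was -5.70 ± 0.48 (SE, n = 2 each), a 51.8-fold fall with adjusted p = 0.0218, with the untreated 2i level below the filter. Its 4 probe sets ran from -5.70 to -1.80. Spry1 read 6.88 and 7.08 in 2i, against 8.20 and 8.96 in serum. Spred1, a relative of the Sprouty proteins, read 8.02 and 8.63 in 2i, against 9.62 and 10.03 in serum. Both fell, by 3.03-fold for Spry1 and 2.82-fold for Spred1. Spred2 fell by 0.66 on the log2 scale, with probe sets from -1.15 to -0.07. Spry2 read 9.57 and 9.72 in 2i, against 10.11 and 10.45 in serum, and its difference of -0.64 had adjusted p = 0.058.

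Of the phosphatases, 2 of 4 tested members fell. Dusp4, a nuclear phosphatase of ERK, read 3.95 and 5.50 in 2i, against 8.54 and 10.05 in serum. Dusp6, a cytoplasmic phosphatase specific for ERK, read 5.58 and 7.68 in 2i, against 10.31 and 10.75 in serum. The media did not overlap for either gene, with falls of 23.7-fold for Dusp4 (adjusted p = 0.00666, with the untreated 2i level below the filter) and 14.9-fold for Dusp6 (adjusted p = 0.029). Dusp5, another nuclear ERK phosphatase, had a difference of -0.41 (adjusted p = 0.17). Dusp1, which also acts on stress kinases, read 10.45 and 10.61 in 2i, against 10.35 and 10.55 in serum, a difference of 0.08 (adjusted p = 0.679).

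Of the transcription factors, Etv4 read 5.16 and 5.96 in 2i, against 8.80 and 8.86 in serum, and fell by 9.66-fold. Its relative Etv5 read 11.17 and 11.21 in 2i, against 11.51 and 11.58 in serum, and its difference of -0.35 had adjusted p = 0.134. Egr1, an immediate-early zinc-finger factor, read 5.36 and 6.11 in 2i, against 8.10 and 9.34 in serum, a fall of 7.92-fold. Etv4 and Egr1 were thus below serum in both pairs without overlap, while Etv5 differed by less than the 2-fold mark. Myc, an early target of growth signalling and a regulator of growth, read 6.05 and 6.97 in 2i, against 9.30 and 10.26 in serum, a fall of 9.65-fold (adjusted p = 0.0108). Parental serum replicate 2, normalised apart, had Myc at 7.43 untreated and 9.60 at day 5, where Dusp4 read 8.83 and 9.42. The untreated serum level of Myc was thus lower in that replicate. Its untreated array had a median of 5.37, against 5.03 to 5.05 in the 4 arrays, so its level is not ranked against 2i. Junb fell by 1.31 and Phlda1 by 1.54 on the log2 scale. Fos had a difference of -0.45 (adjusted p = 0.118), Egr3 one of -0.02 (adjusted p = 0.938), Mcl1 one of -0.44 (adjusted p = 0.135) and Ier2 one of -0.33 (adjusted p = 0.159). Ccnd1, Ier3 and Lif had differences of 0.45, 0.13 and 0.03 and did not pass.

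**Figure D2:**
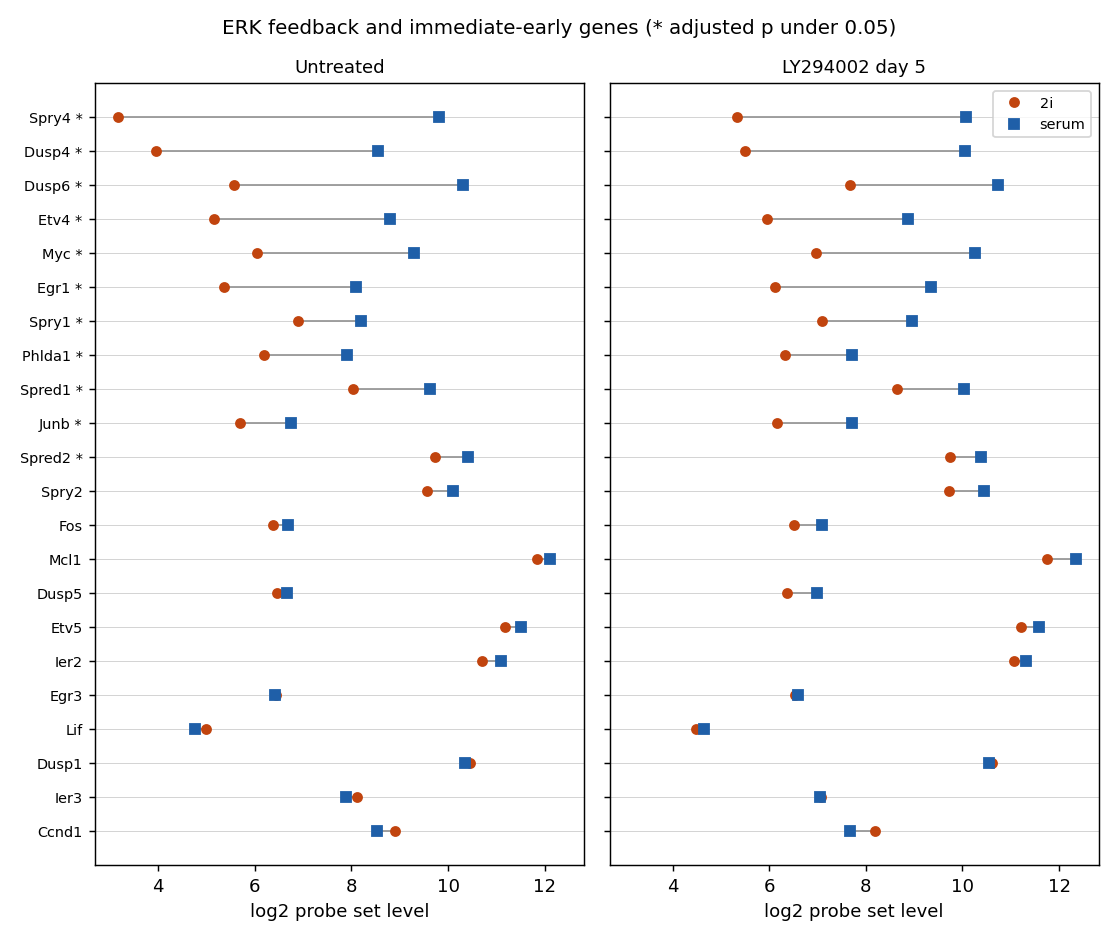
Log2 probe set level (x axis) of the 22 tested members of the ERK list in 2i (circles) and serum (squares), untreated on the left and at day 5 of LY294002 on the right, ordered by mean difference, with an asterisk for genes that passed the test. Spry4 spans 3.16 to 9.80 in the untreated panel, and Egr3 and Dusp1 have nearly coinciding symbols in both panels.

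Genes tied to beta-catenin gave a mixed picture. Of 14 tested Wnt targets, 2 passed as higher (Cdx1 and Sfrp1) and 1 as lower (Bmp4), and the median difference was 0.23, at 0.20 untreated and 0.01 at day 5. Cdx1, a caudal-type homeobox factor, read 9.07 and 7.10 in 2i, against 6.88 and 4.79 in serum. Sfrp1, a secreted Wnt antagonist, read 9.73 and 8.95 in 2i, against 8.74 and 7.48 in serum. Both 2i arrays lay above both serum arrays in each case, by 4.75-fold for Cdx1 (adjusted p = 0.0186) and 2.35-fold for Sfrp1 (adjusted p = 0.0355). Axin2, a negative feedback component widely used as a readout of the pathway, read 8.55 and 8.08 in 2i, against 7.34 and 7.69 in serum. Its groups did not overlap, yet the difference of 0.80 ± 0.23 (SE, n = 2 each) had adjusted p = 0.118. Sp5, a zinc-finger target whose promoter is shown above, read 8.28 and 5.35 in 2i, against 4.87 and 5.12 in serum. The untreated 2i culture alone stood out, and the adjusted p of the mean difference was 0.227. Lef1 read 5.48 and 5.32 in 2i, against 6.14 and 7.59 in serum, a difference of -1.47 with adjusted p = 0.111.

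The remaining Wnt targets all missed the threshold. Apcdd1 had a difference of 0.59 (adjusted p = 0.0623), Notum one of 0.56, Tnfrsf19 one of 0.33, Znrf3 one of 0.13, Nkd1 one of -0.03, Nkd2 one of -0.07, Kremen1 one of -0.07 and Ascl2 one of -0.38. The other 10 listed targets, T and Cdx2 among them, were not tested. Of 17 tested Tcf and Lef factors and pathway components, Gsk3b rose by 1.64-fold, with levels of 8.96 and 8.86 in 2i, against 8.22 and 8.16 in serum. Its 6 probe sets ran from 0.04 to 0.80. Fzd7, a Wnt receptor, read 8.63 and 9.09 in 2i, against 10.74 and 10.67 in serum. Porcn, which acylates Wnt proteins for secretion, read 8.04 and 7.52 in 2i, against 9.20 and 9.02 in serum. These 2 genes were the list's falls, by 3.58-fold for Fzd7 and 2.52-fold for Porcn. The other Fzd7 probe set above the filter differed by only -0.08.

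The core pluripotency list had 4 falls and no rise among 10 genes, beside 3.15% and 3.68% of all genes, with a median difference of -0.14. Pou5f1, which encodes Oct4, read 12.84 and 12.79 in 2i, against 12.75 and 12.67 in serum. Sox2, its partner, read 12.57 and 12.59 in 2i, against 12.67 and 12.52 in serum. Neither passed, with differences of 0.10 and -0.02. Nanog, a homeobox factor whose level varies between cells in serum, read 12.73 and 12.47 in 2i, against 12.29 and 11.62 in serum, a difference of 0.65 ± 0.15 (SE, n = 2 each) with adjusted p = 0.0797. The members that fell were Utf1, Lin28a, Dppa4 and Dppa2. Utf1, a chromatin-associated ESC factor, read 8.34 and 9.62 in 2i, against 11.02 and 11.51 in serum, and fell by 4.87-fold. Lin28a, an RNA-binding protein that blocks let-7 maturation, read 6.67 and 7.50 in 2i, against 9.04 and 9.17 in serum, and fell by 4.05-fold. Dppa4 fell by 0.99 and Dppa2 by 0.73 on the log2 scale. Sall4, Trim28 and Dppa5a had differences of -0.12, -0.16 and 0.05.

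Of 19 naive factors, 2 rose and 1 fell, beside 3.68% and 3.15% of all genes, and the median difference was 0.20, at 0.10 untreated and 0.36 at day 5. Tfcp2l1, a factor of the naive network, read 12.30 and 12.03 in 2i, against 11.31 and 10.77 in serum. Fgf4, the ligand that drives ERK in ESCs, read 11.32 and 11.13 in 2i, against 10.48 and 9.81 in serum. Both genes were higher in each 2i array than in either serum array, by 2.18-fold for Tfcp2l1 and 2.12-fold for Fgf4. Gbx2, a homeobox factor listed as naive, went against them at 6.12 and 6.67 in 2i, against 8.62 and 10.06 in serum, a 7.69-fold fall (adjusted p = 0.0218). Prdm14, which represses Fgf signalling and de novo methylation in ESCs, read 10.13 and 10.02 in 2i, against 9.24 and 8.31 in serum. Nr5a2, a nuclear receptor that acts on Pou5f1, read 10.46 and 10.08 in 2i, against 9.70 and 8.71 in serum. Their arrays did not overlap between media, and both just missed the threshold, at adjusted p = 0.053 for Prdm14 and 0.0511 for Nr5a2.

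The other naive factors did not pass. Esrrb differed by 0.02, Klf4 by 0.29, Klf2 by 0.19, Klf5 by -0.02, Zfp42 by -0.07, Stat3 by 0.20, Tdgf1 by -0.06 and Mybl2 by 0.02. Tbx3 read 10.87 and 11.03 in 2i, against 10.55 and 9.98 in serum, a difference of 0.69 (adjusted p = 0.131). Fbxo15 differed by 1.09 (adjusted p = 0.0913), Dppa3 by 0.35, Zfp57 by 0.29 and Nr0b1 by -0.64. Tcl1 had opposite signs in the 2 drug states, with 10.25 and 10.05 in 2i, against 10.98 and 9.37 in serum.

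**Figure D3:**
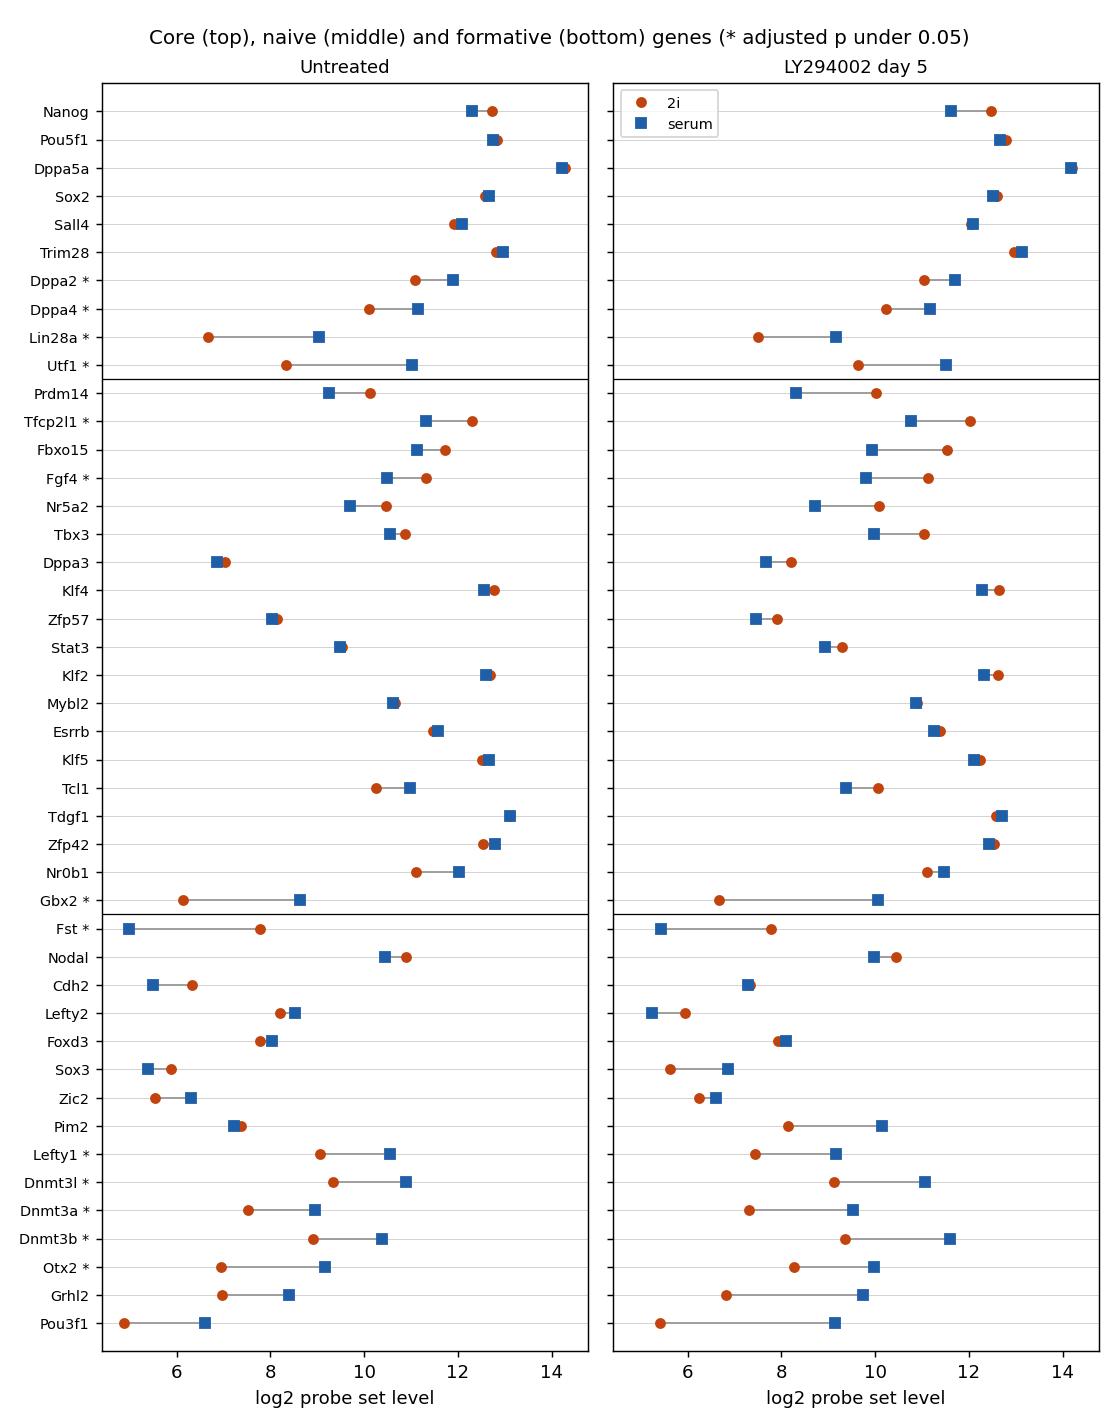
Log2 probe set level (x axis) of the core (top), naive (middle) and formative and primed (bottom) genes in 2i (circles) and serum (squares), untreated on the left and at day 5 of LY294002 on the right, with an asterisk for genes that passed the test. Pou5f1, Sox2 and Esrrb have nearly coinciding symbols, while Gbx2, Utf1, Lin28a and Dnmt3b lie well below serum in 2i in both panels.

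Genes of the formative and primed epiblast had more falls than rises in 2i. Of 15 tested, 5 fell and 1 rose, beside 3.15% and 3.68% of all genes, and the median difference was -0.93, at -0.77 untreated and -1.71 at day 5. Otx2, a homeobox factor of the transition to the formative state, read 6.93 and 8.26 in 2i, against 9.16 and 9.97 in serum. Lefty1, a Nodal antagonist, read 9.05 and 7.42 in 2i, against 10.54 and 9.16 in serum. Otx2 fell by 3.91-fold and Lefty1 by 3.06-fold, both without overlap between media. The untreated 2i level of Lefty1 lay close to its day 5 serum level. The rise was Fst, an activin-binding protein, at 7.77 and 7.78 in 2i, against 4.98 and 5.43 in serum, or 5.93-fold.

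The 3 other falls of that list were the de novo methyltransferase genes, which were also the only called members among 14 tested genes of DNA methylation and demethylation. Dnmt3b read 8.91 and 9.36 in 2i, against 10.38 and 11.61 in serum. Dnmt3a read 7.52 and 7.30 in 2i, against 8.96 and 9.54 in serum. Dnmt3l, the cofactor without catalytic activity, read 9.34 and 9.12 in 2i, against 10.89 and 11.05 in serum. All 3 were lower in each 2i array than in either serum array, by 3.62-fold, 3.57-fold and 3.34-fold for Dnmt3b, Dnmt3a and Dnmt3l. Parental serum replicate 2 had Dnmt3b at 10.79 and 12.37.

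Of 20 listed neuroectoderm genes 9 were tested, and 3 passed as lower: Pax6, Sox1 and Zic5. Pax6 and Sox1 were below the level filter in both 2i arrays and were tested only through serum, so the count is a description. Pax6, an eye and neural homeobox factor, read 3.79 and 3.68 in 2i, against 6.02 and 6.41 in serum. Its probe sets disagreed, with mean differences from -2.47 to 0.02. Sox1, a marker of early neural cells, read 4.16 and 3.94 in 2i, against 5.52 and 5.04 in serum. Zic5 fell by 0.99 on the log2 scale. Sox11 differed by -2.79 with adjusted p = 0.0574.

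The other lineage lists moved the other way or little. Of 11 tested trophoblast and keratin genes, 3 rose and none fell, beside 3.68% and 3.15% of all genes, with a median of 0.50. Gata2, a zinc-finger factor of trophoblast and blood, read 7.87 and 7.42 in 2i, against 6.08 and 5.85 in serum, a 3.21-fold rise. Krt7, a simple-epithelium keratin, rose by 3.55-fold and Eomes, a T-box factor, by 1.96-fold. The defining trophoblast markers Cdx2, Elf5 and Gata3 were all below the level filter in every array, between 2.86 and 3.93. In primitive and visceral endoderm 1 of 13 genes passed: Lama1, a laminin chain of basement membrane, read 8.99 and 8.37 in 2i, against 7.21 and 6.06 in serum, a 4.12-fold rise. Parental serum replicate 2, normalised apart, had Lama1 at 8.83 untreated and 6.67 at day 5, the untreated value well above the 7.21 of the array used. Gata4, Sox7 and Pdgfra were below the filter in every array. In primitive streak and mesendoderm the 2 rises among 8 genes were Cdx1 and Eomes. Pdgfrb was the single rise among 5 tested fibroblast genes, at 9.17 and 7.54 in 2i, against 7.82 and 5.54 in serum, beside collagens below the filter. In the Polycomb-target list 1 of 12 genes (Gata2) passed.

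Components of BMP and TGF-beta signalling gave 3 falls and 1 rise among 17. Id1, an inhibitor of bHLH factors induced by BMP, read 6.00 and 6.30 in 2i, against 8.57 and 8.70 in serum. Bmp4, the ligand, read 7.13 and 8.27 in 2i, against 9.72 and 10.12 in serum. Both lay below serum in both drug states, and Id1 fell by 5.59-fold (adjusted p = 0.0152) and Bmp4 by 4.66-fold (adjusted p = 0.0267). Lefty1 and Fst, described above, were the other 2. In the LIF receptor and Stat3 list, 3 of 16 fell and none rose. Pim3, a serine kinase, fell by 0.94 (probe sets from -1.14 to -0.31) and Socs2, a cytokine feedback inhibitor, by 0.82 on the log2 scale. The third was Junb.

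Sterol and fatty acid synthesis was the list with the most rises. Of 25 tested genes, 7 passed as higher in 2i and none as lower, against 3.68% and 3.15% of all genes. In both drug states 20 of the 25 were above serum and 0 below, a count for which no share of all genes was taken. The median difference was 0.51, at 0.57 untreated and 0.48 at day 5. Scd1, the desaturase that makes oleate, read 11.40 and 11.27 in 2i, against 9.45 and 8.73 in serum. Hsd17b7 and Msmo1, enzymes of the late steps from lanosterol to cholesterol, read 7.38 and 6.99 and 9.94 and 9.38 in 2i, against 6.41 and 5.87 and 9.06 and 8.21 in serum. Each 2i array of these genes lay above both serum arrays, with rises of 4.74-fold for Scd1, 2.06-fold for Hsd17b7 and 2.03-fold for Msmo1. The probe sets of Msmo1 ran from 0.10 to 1.02 and those of Hsd17b7 from 0.37 to 1.05. Sqle, the squalene epoxidase, rose by 1.80-fold, with 9.93 and 9.87 in 2i, against 9.02 and 9.07 in serum. Nsdhl, whose promoter had the most CCAAT matches of those shown, rose by 1.68-fold (adjusted p = 0.0498). All 3 called genes of the list that had a promoter entry held CCAAT. So did 17 of all 19 list genes with an entry, called or not, so the count does not set the called genes apart.

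Lysosome and stress-response lists also had rises and no falls. Of 18 lysosome and autophagy genes, 3 rose: Ctsb, a cathepsin protease, read 11.17 and 10.85 in 2i, against 9.93 and 9.47 in serum. Lamp2, a lysosomal membrane protein, read 10.78 and 10.72 in 2i, against 9.69 and 9.60 in serum. The media did not overlap, and the rises were 2.48-fold for Ctsb and 2.15-fold for Lamp2, beside 1.90-fold for Hexa, a lysosomal hexosaminidase. The probe sets of Ctsb ran from 0.21 to 1.31 and those of Lamp2 from 0.42 to 1.10. Among 23 tested ATF4 and amino acid response genes, 4 rose: Nupr1 by 3.16-fold, Ddit3 by 2.48-fold, Atf5 by 1.68-fold and Ddit4 by 1.61-fold. The probe sets of Ddit3, which encodes CHOP, ran from -0.02 to 1.31. Ddit4 turned to -0.02 when parental serum replicate 2 was added. That replicate, normalised apart, had Nupr1 at 11.20 untreated, a level not ranked against the 2i arrays at 10.75 and 10.62. Of 15 genes of the Nrf2 and oxidative stress list, Gpx1 alone passed, as higher. None of 17 heat shock and endoplasmic reticulum chaperone genes passed.

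Energy metabolism changed at single genes. Among 19 glycolysis and hypoxia-response genes, Hk1 rose by 2.09-fold, Ero1a by 1.78-fold and P4ha1 by 1.70-fold. Pdk1, the kinase that restrains pyruvate entry into mitochondria, went the other way at 9.31 and 9.63 in 2i, against 11.13 and 11.30 in serum, a fall of 3.36-fold (adjusted p = 0.019). In oxidative phosphorylation and the citrate cycle 1 of 19 passed, Cox7a1, as higher, and the median was -0.01.

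Some genes of mitosis were lower in 2i. Of 24 genes of DNA replication and mitosis, 6 fell and none rose, beside 3.15% and 3.68% of all genes, and 18 did not pass. The median was -0.32, with 17 below serum in both drug states and 2 above, again without a share of all genes. Cdc20, the activator of the anaphase-promoting complex, read 10.77 and 11.39 in 2i, against 11.92 and 12.31 in serum. Mki67, a proliferation marker, read 9.38 and 9.52 in 2i, against 10.35 and 10.40 in serum. Each 2i array lay below both serum arrays, with falls of 2.05-fold for Cdc20 and 1.89-fold for Mki67, and of 1.82-fold for Aurkb and 1.84-fold for Plk1, mitotic kinases. Cdkn1a, which encodes the CDK inhibitor p21, read 11.20 and 10.28 in 2i, against 9.48 and 7.92 in serum, a rise of 4.11-fold (adjusted p = 0.0267). Cdkn2a rose by 2.37-fold. The p53 and CDK inhibitor list of 17 had these 2 rises and 2 falls, the apoptosis genes Bbc3 (2.32-fold) and Pmaip1 (2.59-fold).

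In the Myc network of 11 genes, Myc fell and Mycl, a Myc paralog, rose by 1.67-fold. None of 30 genes of ribosome biogenesis and known Myc targets passed, with a median of -0.12, at -0.05 untreated and -0.20 at day 5. In both drug states 18 of them were below serum and 2 above, a count without a share of all genes beside it.

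Among 30 components of PI3K and Akt signalling and targets of FOXO factors, 1 rose and 2 fell, near the share of all genes, and the median was -0.07. Sod2, the mitochondrial superoxide dismutase, read 12.49 and 12.34 in 2i, against 11.52 and 11.37 in serum. Igf1r, the receptor for insulin-like growth factor, read 7.01 and 7.38 in 2i, against 7.82 and 8.05 in serum. Irs2, an adaptor between that receptor and PI3K, read 6.51 and 7.26 in 2i, against 7.17 and 8.19 in serum. Sod2 rose by 1.95-fold and Igf1r fell by 1.67-fold without overlap, whereas Irs2 fell by 1.73-fold within each drug state with overlapping levels. Eras, an ESC-expressed Ras that activates PI3K, differed by -1.52 with adjusted p = 0.0532.

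**Figure D4:**
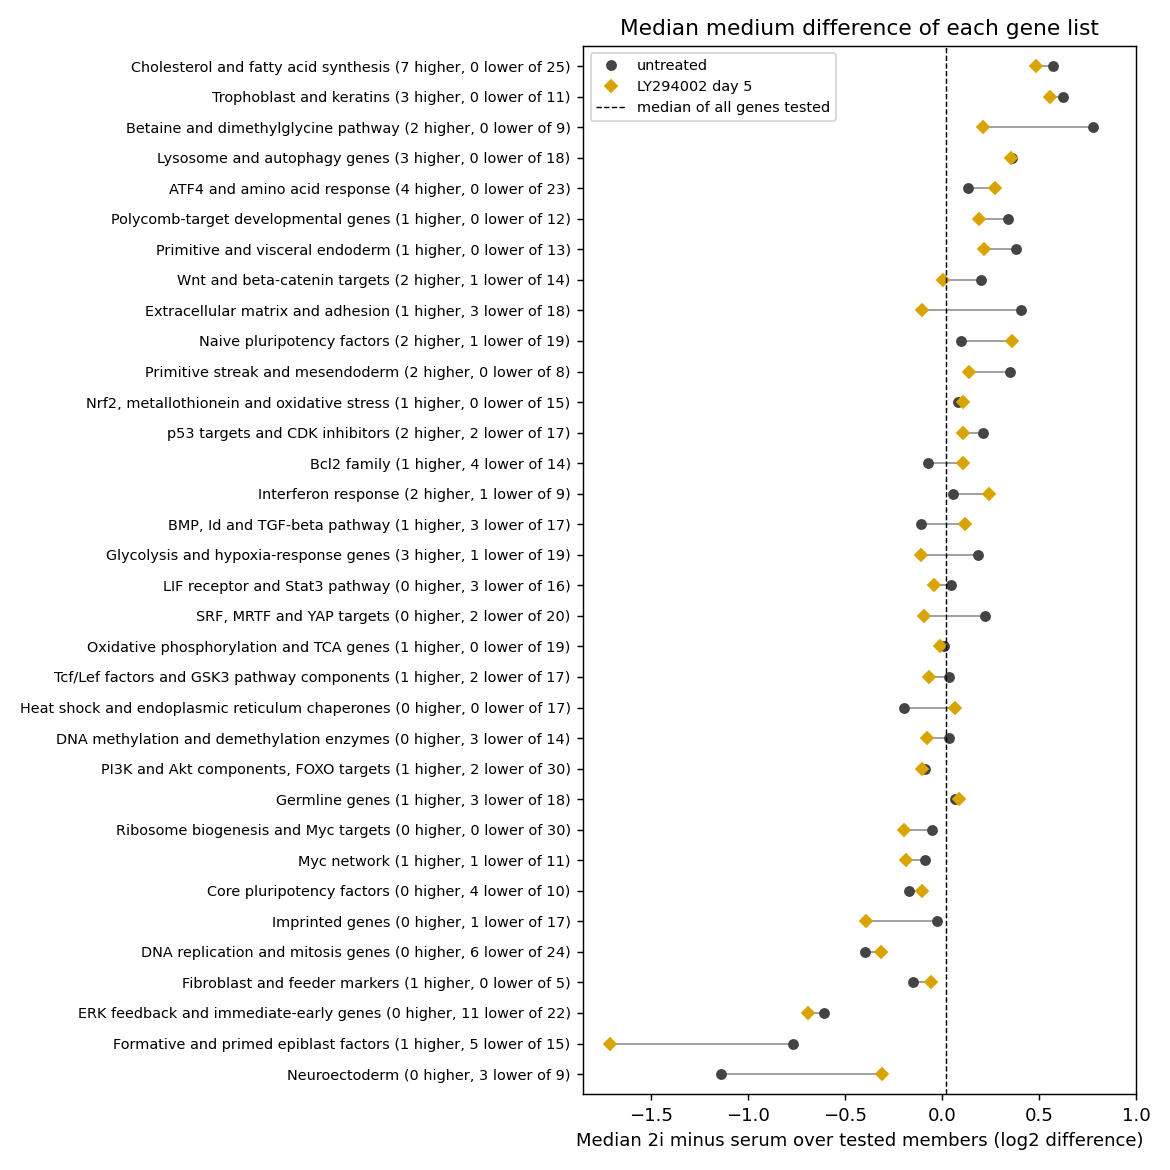
Median log2 difference of 2i minus serum over the tested members of each gene list, untreated (circles) and at day 5 of LY294002 (diamonds), with the number of members higher and lower in 2i in brackets and the median of all genes as a dashed line. Cholesterol and fatty acid synthesis lies at 0.57 and 0.48, and the ERK list at -0.61 and -0.69. The neuroectoderm medians include Pax6 and Sox1, which were tested only through serum.

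Whether the medium difference changed with LY294002 was tested in a fit of 10 samples, which set the day 5 change in 2i against the mean day 5 change of 4 serum pairs (both parental replicates and the 2 c-Myc lines). None of 13580 genes passed in limma (0%), at a smallest adjusted p of 0.13, with 1506 genes under an unadjusted p of 0.05, 702 of them more positive and 804 more negative in 2i. Without parental serum pair 1, 1354 genes passed, so the count depends on that pair. It is the only serum pair from the same set of 4 arrays as 2i. Without it, an effect of 2i and one of the set of arrays cannot be told apart. The values of the genes with the largest change between drug states are given as a description, since they were picked for it.

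Slc40a1, the iron exporter ferroportin, read 5.20 untreated and 4.65 at day 5 in 2i, against 4.46 and 7.43 in serum. The serum level at day 5 stood apart from the other 3, and parental serum replicate 2 likewise had 5.21 untreated and 9.19 at day 5. Cdkn1c, an imprinted CDK inhibitor, read 7.29 and 6.17 in 2i, against 7.96 and 9.24 in serum. Sp5, Pdzrn3 and AF067061 were instead highest in untreated 2i: Pdzrn3 read 7.06 and 4.90 in 2i, against 3.31 and 3.63 in serum. AF067061 read 9.04 and 5.37 in 2i, against 6.55 and 5.10 in serum. Mex3b, an RNA-binding protein, read 6.43 and 5.20 in 2i, against 4.84 and 5.86 in serum, with its order between media differing by drug state. The adjusted p of the dependence on LY294002 lay between 0.13 (Pdzrn3) and 0.425 (AF067061) for these 6 genes.

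In the opposite direction, Trh, the precursor of thyrotropin-releasing hormone, read 8.24 and 9.91 in 2i, against 10.56 and 9.61 in serum. Mcam, an adhesion molecule, read 5.23 and 6.83 in 2i, against 7.66 and 6.95 in serum. Adam23 read 4.88 and 6.75 in 2i, against 8.80 and 8.37 in serum. In Trh and Mcam the untreated 2i culture was the lowest of the 4 and the media came close at day 5, while Adam23 stayed below serum in both. Ttc29 read 3.39 and 5.19 in 2i, against 5.35 and 4.60 in serum. Timm8a2 read 6.12 and 6.15 in 2i, against 6.24 and 3.83 in serum. Adgrd1, an adhesion receptor coupled to G proteins, read 7.50 and 7.35 in 2i, against 8.62 and 6.05 in serum. For these 6 genes the adjusted p of the dependence lay between 0.191 (Mcam) and 0.431 (Ttc29 and Timm8a2).

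**Figure D5:**
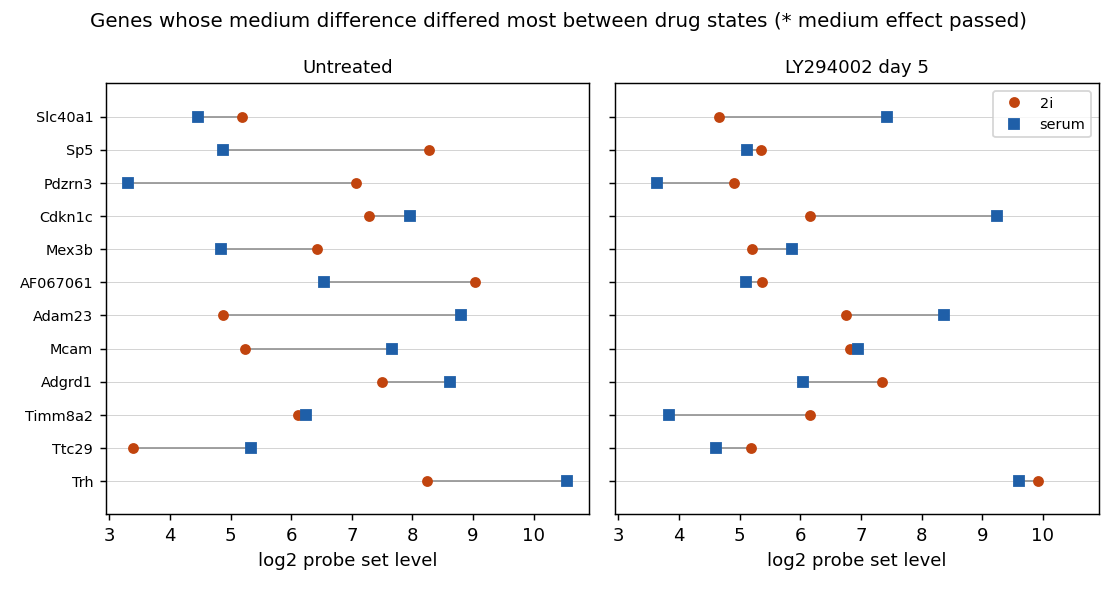
Log2 probe set level (x axis) of the 12 genes with the largest change in the medium difference between drug states, in 2i (circles) and serum (squares), untreated on the left and at day 5 of LY294002 on the right. Sp5 is far above serum in the untreated panel only, Pdzrn3 is above serum in both, and Slc40a1 is far below serum in the day 5 panel only.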

How the data were processed

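RNA extracted with TRIzol was converted to biotinylated cRNA for Affymetrix arrays, per the labels' protocols. The deposited values are log2 probe set levels computed by the authors with RMA and the affy package, per the submitters' processing notes, with versions and settings not given in the sources used here. Array medians make it likely that the 4 arrays used and the other 14 were normalised in separate RMA runs, which no label states.

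Of 45101 probe sets, 64 were controls, 34945 named 1 gene, 932 several and 9160 none in the platform annotation, which can be old, and 34741 were matched to a RefSeq gene. Each of 18193 genes took its single-gene probe set with the highest mean over all 18 arrays, a choice among several for 9010. Genes with at least 2 of 4 samples above log2 4.64, the 40th percentile of the table, were tested (12456), and 5737 were left out. Differences are 2i minus serum, fitted with limma 3.58.1 in R 4.3.3 (lmFit, eBayes) with drug state as a block, on 4 samples with 1 residual degree of freedom. Tests were 2-sided, with the Benjamini-Hochberg adjustment across every gene tested and a threshold of 0.05. Serum and 2i were paired by drug state as named in the titles. The untreated and the day 5 differences correlated over genes at 0.73, a description across genes. It does not check the pairing, since a medium difference shared by both drug states would give a correlation under either pairing. Dependence on LY294002 was fitted with culture as a block on 10 samples. Of 378 called genes with several probe sets above the filter, 348 had all of them in 1 direction. Separate cultures were not stated, so p-values measure only the spread between these samples. The code was tested on simulated data.

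Samples, gene lists and tests were chosen with earlier results of these data known, and no list has a test of its own. The rule for named genes takes the 12 largest rises and 12 largest falls that passed with the same direction in both drug states. It adds the 4 members with the smallest p of each list described with any member going against the others, all ERK, Wnt, core and naive genes, and the 6 genes in each direction whose medium difference changed most with LY294002. Nsdhl, genes below the filter, and members of lists beyond these were named after their values were seen, as were the 2 lists of the Bcl2 family and of betaine metabolism. Alternatives changed the block, the source of the spread, the level filter, the scaling, the probe set per gene, the prior and the threshold, or left out 1 sample together with the block. Sequences are RefSeq promoters matched by symbol.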

Additional observations from a re-analysis of the deposited data

Results flagged for a closer look

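Adgrd1, Anxa3, Id3 and Pon2 were at least 2-fold apart between 2i and serum in opposite directions in the 2 drug states. Adgrd1 had a difference of -1.12 untreated and 1.31 at day 5, so that the day 5 difference exceeded the untreated one by 2.43 on the log2 scale. Id3, a BMP-induced inhibitor of bHLH factors, read 7.25 and 9.60 in 2i, against 8.33 and 8.40 in serum, and its difference moved by 2.27. Anxa3, an annexin, read 7.48 and 5.51 in 2i, against 6.43 and 6.61 in serum, a move of -2.14. Pon2, a paraoxonase, read 6.69 and 5.52 in 2i, against 5.68 and 6.55 in serum, a move of -2.04, and its probe sets gave mean differences of different sign. In the 10-sample limma fit the dependence on LY294002 had adjusted p = 0.269 for Adgrd1 and Id3, 0.425 for Anxa3 and 0.16 for Pon2, so none passed.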

How the results depend on the processing

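The calls depend on the processing. With no replicate block, 1 gene passed (0 higher, 1 lower, Zfp423 at adjusted p = 0.0098), with differences that are the same by construction. With parental serum replicate 2 added, 17 passed (7 higher, 10 lower), and Ddit4 and Stag3 turned to -0.0209 and 0.1152. With no level filter 152 passed (74 higher, 78 lower), with the filter at the 60th percentile 1375 (731 higher, 644 lower), with quantile normalization of the 4 arrays 1301 (729 higher) and with a threshold of 0.1 2062 (1126 higher, 936 lower). Fits without 1 sample also dropped the block, so their counts are not set beside these. Taking the spread from 10 samples gave 715 calls, 485 of them shared. Centring, both other probe set rules and a trended robust prior gave 740 to 1260. Of 110 called genes of the lists and named sets, 71 kept their call with the 10-sample spread, 35 with no level filter and 8 with serum replicate 2 added. The dependence on LY294002 gave 0 to 1354 calls when 1 serum pair was left out. The 1354 came only without parental pair 1, the only serum pair in the array set of 2i. The cause of these moves was not tested, except that fewer samples and fewer or more genes tested enter by construction. The share of calls higher in 2i was 53.9%, and 54% to 56% under the other scalings. Signal near background limits genes below the filter in 2i, such as Spry4 untreated and Pax6, whose low levels have little order.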

Other observations

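Genes of betaine metabolism and of the Bcl2 family were listed after their values were seen, so their counts are a description. Of 9 tested genes of the betaine and dimethylglycine pathway, 2 rose. Bhmt, which methylates homocysteine with betaine, read 8.57 and 5.71 in 2i, against 4.06 and 3.20 in serum. Dmgdh, the mitochondrial enzyme that acts on the dimethylglycine made in that reaction, read 8.29 and 6.57 in 2i, against 4.69 and 4.63 in serum. Bhmt2 read 7.58 and 5.67 in 2i, against 3.50 and 3.71 in serum, with adjusted p = 0.0532. In all 3 genes the untreated 2i culture was the highest of the 4, and Bhmt and Bhmt2 were below the level filter in both serum arrays. Of 14 Bcl2 family genes, 4 fell and 1 rose. The falls were in pro-apoptotic BH3-only genes, though not in all of them. The probe sets of Bid, Bad and Hrk, also BH3-only, ran from 0.38 to 0.47, 0.31 to 0.57 and 0.34 to 0.35. Those of Bik, another such gene, ran from -0.04 to 0.11. Bcl2l11, which encodes Bim, read 7.32 and 7.23 in 2i, against 8.58 and 9.19 in serum, a fall of 3.05-fold. Bmf fell by 2.72-fold, with probe sets from -1.44 to 0.22, beside Bbc3 and Pmaip1. Bcl2l14 rose by 2.66-fold.

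In adhesion and matrix genes, 3 of 18 fell and 1 rose. Epcam, an epithelial adhesion molecule, read 8.54 and 9.12 in 2i, against 10.96 and 11.62 in serum, a fall of 5.49-fold (adjusted p = 0.0152). Mmp2, a matrix metalloprotease, fell by 2.12-fold and Vim, an intermediate filament, by 1.66-fold, whereas Cd9, a tetraspanin, rose by 1.89-fold. Of 20 SRF, MRTF and YAP targets, Lmna and Ajuba fell and none rose. The probe sets of Lmna ran from -1.38 to -0.10. Of 18 germline genes, Dazl, an RNA-binding protein of germ cells, rose by 2.62-fold, and Dnd1, Sycp3 and Stag3 fell. Bst2, an interferon-induced antiviral membrane protein, fell by 6.02-fold among 9 interferon-response genes, while Ifitm3 and Oas1a rose. Mest, at 7.07 and 8.27 in 2i, against 8.92 and 9.60 in serum, was the 1 called gene of 17 imprinted genes. No gene of the 2-cell-like list was tested.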
